A study of Mus musculus with 12 samples.

Results

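Rpgrip1, D17H6S56E-5, Gdpd3, Chl1 and Spon2 were the genes examined, chosen by their measured gap between mixed-strain and FVB keratinocyte cultures, which was among the widest of all genes. They are 5 of the 12393 genes measured, and the platform annotation gave them 9 of the 22626 probe sets. The choice used the culture values, so those are given as a description without a test. The skin arrays were not used by the choice and carry the tests. The arrays held RNA of 2 cultures from newborn mice of a mixed C57, DBA and FVB background and of 3 cultures from newborn FVB mice. Skin tissue came from 30-day-old mice of the mixed background on 5 arrays and from newborn FVB mice on 2 arrays. Each culture pooled keratinocytes of 5 newborn mice of the same genotype, grown in low-calcium medium without passage. The labels give no share of each parent strain in the mixed background, no substrain and no sex.

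The question was whether a gene that separated the strains in culture also separated mixed-strain from FVB skin. In skin, strain and age change together and cannot be told apart, because all mixed-strain skin was 30 days old and all FVB skin was newborn. Both kinds of culture came from newborn mice, but the culture groups also differed in the actin controls and differentiation markers given below. Strain cannot be told apart from such differences between the cultures. The tissue is bulk, so fewer cells of a type and less RNA per cell cannot be told apart. Levels are on the log2 scale of RMA, which subtracts background, brings all arrays to 1 distribution and combines the probes of each probe set. A difference of 1 is 2-fold, and levels of different probe sets are not compared with each other.

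Inbred mouse strains carry different alleles at many genes, and such differences can change the amount, splicing or sequence of a transcript. An array probe is a short fixed sequence, so its signal depends on the amount of RNA and on its match to the probe. C57 and DBA mice are pigmented, whereas FVB mice are albino because of a mutation in the tyrosinase gene. The roles named here for the genes examined differ from one another. RPGRIP1 is a ciliary scaffold that binds the retinitis pigmentosa GTPase regulator in photoreceptors, GDPD3 is a lipid phosphodiesterase, CHL1 is a neural adhesion molecule of the L1 family, and spondin 2, also called mindin, is a secreted matrix protein of innate immunity.

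The cultures carried the keratinocyte markers strongly, with list means over 10 genes of 10.74 to 10.76 in the mixed-strain cultures, against 10.93 to 11.02 in those of FVB mice. Fibroblast markers averaged 6.01 in the mixed-strain cultures, against 5.52 in those of FVB mice, and 9.87 in 30-day skin, against 10.48 in newborn skin. One array, replicate 1 of 30-day skin, differed from its group in RNA controls. Between the 3' and 5' actin probe sets it had a gap of 1.74, against 0.67 to 0.82 on the group's other arrays and 0.99 and 1.14 in newborn skin. In culture this gap was 0.21 and 0.35 for mixed-strain samples, against 0.56 to 0.74 for FVB samples. Skin results of the 5 genes are also given without that array. Within 30-day skin, replicates 2 and 3 and replicates 4 and 5 resembled each other most, with SDs of 0.170 and 0.176 of the difference over all probe sets, against 0.287 to 0.417 for the other pairs. Whether each skin sample is a separate animal is not stated in the labels. The p-values therefore reflect the spread among these samples, which may be technical.

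Rpgrip1 was the gene with a difference in skin as large as that in culture. Its probe set 1421144_at read 8.07 and 8.16 in mixed-strain cultures, against 5.12, 5.31 and 5.42 in FVB cultures. In skin it read 9.19, 8.53, 8.48, 7.92 and 8.34 on the 30-day mixed-strain arrays, against 5.06 and 4.94 on the newborn FVB arrays. The 7 mixed-strain arrays thus all lay above the 5 FVB arrays, in culture as in tissue. The culture difference was 2.84, or 7.14-fold. It ranked 2 by increase among all genes taken by their brightest probe set, and 8 among all probe sets. The skin difference was 3.49 ± 0.27 (SE), or 11.3-fold, with an adjusted p = 0.000105 (limma). It ranked 5 among the 12393 genes by increase in 30-day skin. Without replicate 1 of 30-day skin the difference was 3.32.

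Within a strain background, Rpgrip1 levels in culture and skin lay near each other. FVB cultures lay 0.28 above newborn FVB skin without overlap, and mixed-strain cultures lay 0.38 below 30-day mixed-strain skin, whose range held both cultures. On the arrays, the probe set ranked at the 85th to 94th percentile of all probe sets in mixed-strain samples and at the 23rd to 37th in FVB samples. RMA gives no detection call, so whether the FVB samples held any signal above background is not known, and the fold carries that limit.

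The 3 other Rpgrip1 probe sets did not show the pattern. Probe set 1454231_a_at averaged 5.01 in mixed-strain cultures, against 4.82 in FVB cultures. The values were 4.63 in mixed-strain cultures, against 4.82 in FVB cultures, for 1431357_a_at, and 4.02 in mixed-strain cultures, against 4.38 in FVB cultures, for 1451785_at. Their skin differences were 0.17 ± 0.11, -0.07 ± 0.10 and 0.01 ± 0.12 (SE), with adjusted p of 0.399, 0.742 and 0.974 (limma). All 3 stayed below the 30th percentile on every array. The platform annotation gives each of the 4 probe sets another transcript record, and 1421144_at has the RefSeq mRNA record.

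**Figure D1:**
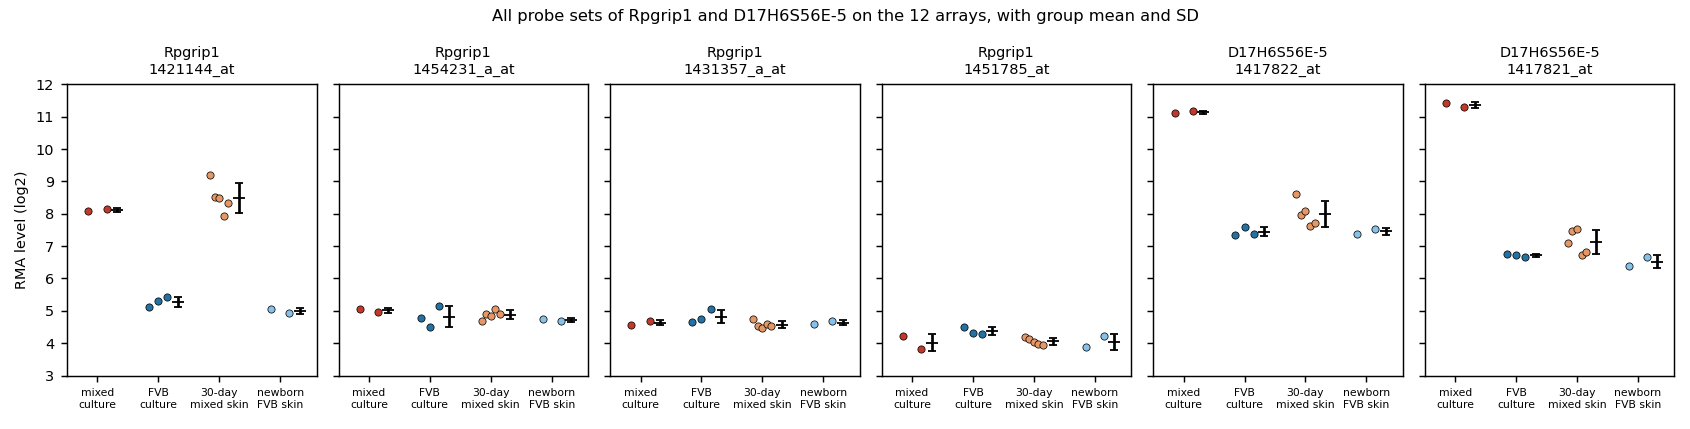
RMA levels (log2, vertical axis) of all 4 probe sets of Rpgrip1 and both of D17H6S56E-5 on the 12 arrays, by group, with group means and SDs as bars. One Rpgrip1 probe set, 1421144_at, separated mixed-strain from FVB samples in culture and in skin, while the other 3 stayed near 4 to 5 everywhere, and both D17H6S56E-5 probe sets were above 11 in mixed-strain cultures alone.

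D17H6S56E-5, also listed as G7e, lies in the MHC class III region and had the largest culture difference of all genes. Its probe set 1417822_at read 11.10 and 11.16 in mixed-strain cultures, against 7.36, 7.60 and 7.38 in FVB cultures. Its other probe set, 1417821_at, read 11.42 and 11.30 in mixed-strain cultures, against 6.76, 6.74 and 6.67 in FVB cultures. These differences were 3.69 and 4.64, or 12.9-fold and 24.9-fold, and were the 2 largest increases among all probe sets. The 2 probe sets followed each other over the 12 arrays, with a Pearson r of 0.983 that describes arrays of 4 groups.

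Most of that gap was missing from skin. Probe set 1417822_at read 8.62, 7.96, 8.10, 7.61 and 7.70 in 30-day mixed-strain skin, against 7.38 and 7.53 in newborn FVB skin. Probe set 1417821_at read 7.11, 7.47, 7.52, 6.73 and 6.82 in 30-day skin, against 6.38 and 6.66 in newborn skin. The 30-day arrays were above the newborn arrays for both, by as little as 0.08 and 0.07 between the nearest arrays. The differences of 0.54 ± 0.24 and 0.61 ± 0.22 (SE) did not pass the test, with adjusted p of 0.189 and 0.118 (limma). For 1417821_at the adjusted p was 0.044 (limma) with all 12 arrays in the fit. That fit takes part of its spread from the culture arrays, which the choice of genes used, so it is not a test on skin alone. Without replicate 1 of 30-day skin the differences were 0.38 and 0.61. Mixed-strain cultures exceeded mixed-strain 30-day skin by 3.14 and 4.23, whereas FVB cultures stood within 0.20 of newborn FVB skin for both probe sets.

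The 2 genes that were higher in mixed-strain cultures are shown here with the 250 bases before their RefSeq start. A link of these letters to the culture or skin values was not tested. The sequences are the C57BL/6J reference of RefSeq (GRCm38.p6), written 5′ to 3′ on the gene's strand, with matches to CCAAT or TATAAA on either strand in capitals. The Rpgrip1 window is chr14:52110653-52110902 on the plus strand, and that of D17H6S56E-5 is chr17:35000747-35000996 on the minus strand.
Rpgrip1: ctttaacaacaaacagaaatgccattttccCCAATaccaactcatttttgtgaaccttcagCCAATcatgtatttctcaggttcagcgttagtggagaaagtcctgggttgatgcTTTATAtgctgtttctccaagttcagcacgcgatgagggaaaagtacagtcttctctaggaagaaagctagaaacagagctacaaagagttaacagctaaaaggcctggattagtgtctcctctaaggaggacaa
D17H6S56E-5: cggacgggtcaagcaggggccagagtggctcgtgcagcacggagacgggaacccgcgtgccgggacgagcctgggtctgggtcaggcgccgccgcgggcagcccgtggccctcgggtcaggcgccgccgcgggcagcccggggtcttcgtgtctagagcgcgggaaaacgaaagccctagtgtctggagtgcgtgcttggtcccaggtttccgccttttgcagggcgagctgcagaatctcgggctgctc
The Rpgrip1 window held 41.6% G and C, 3 CpG dinucleotides, 2 CCAAT matches and 1 TATAAA match, none of which overlapped. That of D17H6S56E-5 held 70.4% G and C and 28 CpG dinucleotides, with no match to the CCAAT letters, the TATAAA letters or the GC box letters GGGCGG. Over all 32851 windows of this length the median was 52.4% G and C and 6 CpG dinucleotides, and 33.9% held CCAAT on either strand, while 12.4% held the TATAAA letters and 32.7% held the GC box. These are letters of 1 reference strain and say nothing of the FVB or DBA alleles. Of the 5 genes, 4 had an entry in the promoter table. The Gdpd3 window held 65.2% G and C and 6 CpG dinucleotides, and that of Chl1 held 52.4% and 8.

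Gdpd3, whose product cleaves lysophospholipids to lysophosphatidic acid, was the gene most reduced in mixed-strain cultures by the brightest probe set of each gene. Its only probe set read 5.33 and 5.42 in mixed-strain cultures, against 7.95, 7.93 and 7.82 in FVB cultures, a difference of -2.52 or 5.76-fold. The mixed-strain cultures lay at the 34th to 37th percentile of their arrays, so this fold carries the same limit as that of Rpgrip1. In skin Gdpd3 read 7.70, 7.44, 7.67, 7.19 and 7.18 on the 30-day mixed-strain arrays, against 8.04 and 8.28 on the newborn FVB arrays. The 30-day arrays were all lower, with 0.34 between the nearest arrays of the groups. The skin difference was -0.73 ± 0.17 (SE, adjusted p = 0.0245, limma), 28.8% of the culture difference. Without replicate 1 of 30-day skin it was -0.79. It did not pass without either newborn array, with values of -0.85 and -0.61 and adjusted p of 0.0939 and 0.244 (limma). Mixed-strain cultures were the low group, 2.06 below 30-day mixed-strain skin, while FVB cultures lay 0.26 below newborn FVB skin.

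Chl1, a gene best known from neurons and Schwann cells, was high in FVB cultures alone of the 4 groups. It read 4.57 and 4.59 in mixed-strain cultures, against 6.61, 6.92 and 6.93 in FVB cultures, a difference of -2.24 or 4.72-fold. The mixed-strain cultures lay at the 14th to 15th percentile of their arrays, so their Chl1 signal may be at background and the fold carries the same limit as that of Rpgrip1. In skin it read 5.15, 4.03, 4.02, 4.25 and 4.35 on the 30-day arrays, against 4.67 and 4.99 on the newborn arrays. The skin groups overlapped through replicate 1 of 30-day skin, the highest of the 7 arrays. Their difference was -0.47 ± 0.28 (SE, adjusted p = 0.326, limma). Without replicate 1 it was -0.67 (adjusted p = 0.00775, limma), and without newborn replicate 2 it was -0.31. FVB cultures exceeded newborn FVB skin by 1.99, and mixed-strain cultures differed from 30-day skin by 0.22 with overlapping arrays. Chl1 lay between the 4.8th and 28th percentiles of the arrays outside FVB cultures and between the 63rd and 69th within them.

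Spon2 followed the same order in culture. It read 6.11 and 5.91 in mixed-strain cultures, against 8.30, 8.33 and 7.98 in FVB cultures, a difference of -2.19 or 4.57-fold. In skin it read 6.82, 6.50, 6.42, 6.02 and 6.12 on the 30-day arrays, against 6.38 and 6.44 on the newborn arrays. The 2 newborn arrays lay inside the 30-day range. The difference of -0.04 ± 0.20 (SE) did not pass the test, with an adjusted p = 0.939 (limma), and was -0.15 without replicate 1 of 30-day skin. FVB cultures exceeded newborn FVB skin by 1.79, and the mixed-strain cultures were 0.37 below 30-day skin, with overlapping arrays.

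**Figure D2:**
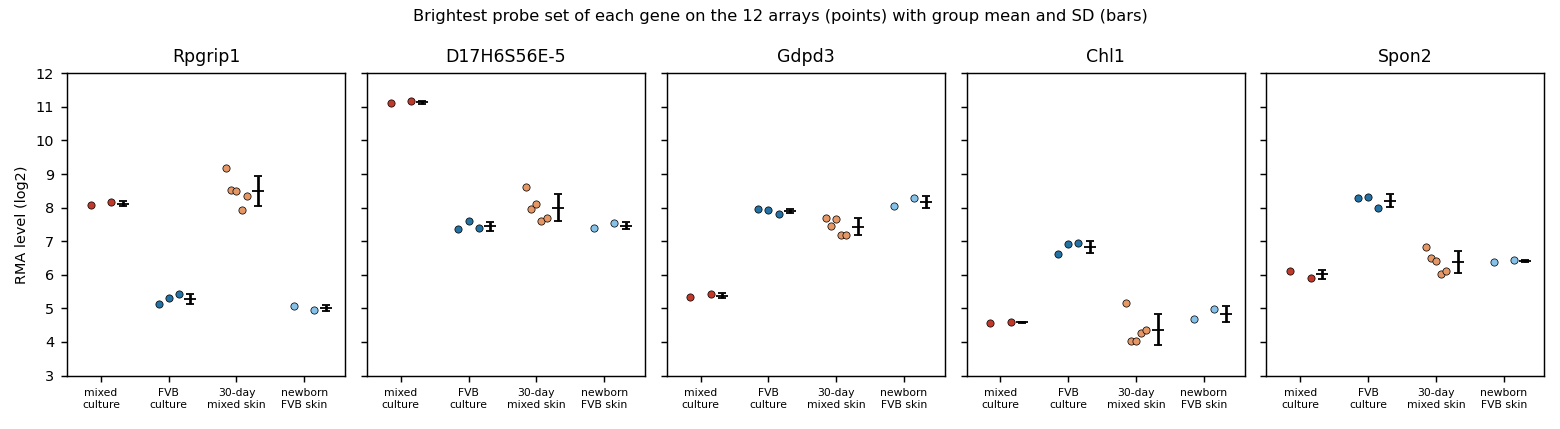
RMA levels (log2, vertical axis) of the brightest probe set of each of the 5 genes on the 12 arrays, by group, with group means and SDs as bars. The culture groups stand apart for every gene, by 3.69 for D17H6S56E-5 and by -2.19 for Spon2. The skin groups differ by 3.49 for Rpgrip1, and between -0.73 and 0.54 for the other 4.

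Across the 9 probe sets, 2 passed the test in skin, 1421144_at of Rpgrip1 and that of Gdpd3, against 12.6% of all probe sets. The skin groups did not overlap for 4 of the 9, against 32.2% of all probe sets. In culture the groups did not overlap for 7 of the 9, against 46.0% of all probe sets, which the choice of genes largely sets. Among the 7, Rpgrip1's 1451785_at differed the other way from 1421144_at (-0.36), with 0.085 between the nearest arrays. The genes do not share 1 pattern over the 12 arrays. Chl1 and Spon2, both high in FVB cultures, had a Pearson r of 0.936. D17H6S56E-5 and Gdpd3, for which mixed-strain cultures were the group apart, had an r of -0.935. Rpgrip1 had an r between -0.68 and 0.49 with the other 4. These values rest on 4 group levels and are descriptions.

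**Figure D3:**
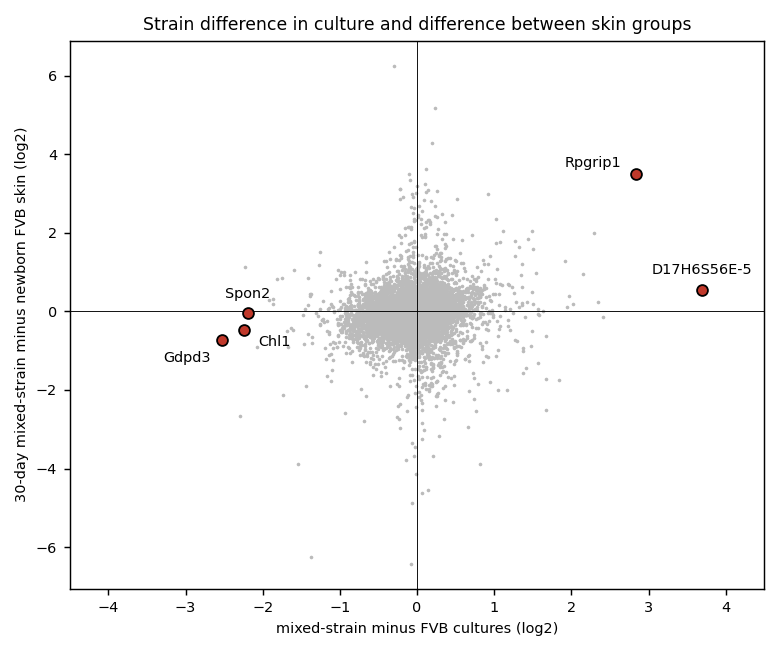
Difference between mixed-strain and FVB cultures (log2, horizontal axis) against the difference between 30-day mixed-strain and newborn FVB skin (log2, vertical axis) for the 12393 genes, with the 5 genes in red. Rpgrip1 is far from 0 on both axes, at 2.84 and 3.49, while Spon2 lies at -2.19 and -0.04.

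In rank of the culture difference by the brightest probe set of each gene, D17H6S56E-5 and Rpgrip1 ranked 1 and 2 on the higher side. Il1a at 2.41 and Il33 at 2.35 followed. Gdpd3, Chl1 and Spon2 ranked 1, 3 and 5 on the lower side, or 3, 5 and 7 among all probe sets. The keratin gene Krt1 at -2.29 and the connexin gene Gjb2 at -2.23 lay between them, and the transcription factor gene Sox11 followed at -2.08. In 30-day skin Krt1 fell by 2.65 (adjusted p = 3.03e-06, limma), Gjb2 rose by 1.13 (adjusted p = 0.00407, limma), and Il1a differed by -0.13 (adjusted p = 0.486, limma).

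Melanocyte markers also differed between the culture groups and between the skin groups. Of 14 measured markers, 9 were higher in mixed-strain cultures and 0 lower, against 4.84% of genes called higher. In skin 8 were higher in 30-day mixed-strain samples and 0 lower, against 5.42% of genes called higher. Tyrp1, an enzyme of melanin synthesis, averaged 10.48 in mixed-strain cultures, against 8.19 in FVB cultures. In 30-day skin it averaged 9.72, against 7.73 in newborn skin. The list mean was 7.29 and 7.31 in the mixed-strain cultures, against 6.30 to 6.37 in those of FVB mice. It was 7.67 to 8.11 in 30-day skin, against 7.15 in newborn skin. The part of these cells in the 5 genes was not tested.

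Differentiation markers of the epidermis were lower in mixed-strain cultures for 5 of 11 and higher for 0, against 9.27% of genes called lower, among them Krt1 and Krt10 (-1.18), both suprabasal keratins. Their list mean was 6.80 and 6.87 in the mixed-strain cultures, against 7.38 to 7.58 in those of FVB mice. It was 9.34 to 9.46 in 30-day skin, against 9.59 to 9.62 in newborn skin. In 30-day skin 2 of the 11 were higher, against 5.42% of genes, and 4 lower, against 9.36%, with a list median of 0.03. Krt77, a skin keratin gene, rose by 3.49 there and Ivl, a cornified envelope gene, by 1.003, while Krt1 and Krt10 fell. Of 12 fibroblast markers 5 were higher in mixed-strain cultures, against 4.84% of genes, and 0 lower. In 30-day skin 1 was higher, against 5.42% of genes, and 5 lower, against 9.36%. Of 10 Schwann cell markers 2 were higher in mixed-strain cultures, against 4.84% of genes, and 1 lower, against 9.27%, with list means of 7.20 and 7.27 in the mixed-strain cultures, against 7.03 to 7.10 in FVB cultures. In 30-day skin 7 of 10 endothelial markers were lower, against 9.36% of genes, and 5 of 8 Langerhans and T cell, 2 of 8 macrophage and 3 of 8 muscle markers were higher, against 5.42% of genes. The part of differentiation, fibroblasts, Schwann cells or the actin gap in the 5 genes was not tested.

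Partners and relatives of the 5 genes are set against the shares called over all genes, which were 4.84% higher and 9.27% lower in culture and 5.42% higher and 9.36% lower in skin. Of 5 measured genes of the ciliary transition zone, where RPGRIP1 acts, B9d1 was the 1 called in either comparison, with differences of -0.57 in culture and -0.41 in skin (adjusted p = 0.0191 and 0.0377, limma). Rpgr, the gene of its main partner, averaged 4.17 in mixed-strain cultures, against 4.02 in FVB cultures, near the bottom of the arrays. Among 12 genes of glycerophosphodiesterases and lysophosphatidic acid signalling, 2 were higher in mixed-strain cultures, against 4.84% of genes, and 1 lower, against 9.27%. In 30-day skin 0 were higher and 1 lower, against 5.42% and 9.36%. The receptor gene Lpar1 rose by 0.51 in mixed-strain cultures but fell by 1.06 in 30-day skin.

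Of 13 genes of the L1 family and its partners 3 were higher in mixed-strain cultures and 0 lower, against 4.84% and 9.27% of genes. In 30-day skin 1 was higher and 2 lower, against 5.42% and 9.36%. Nrp1, a semaphorin co-receptor that binds CHL1, rose by 1.04 in mixed-strain cultures, where Chl1 was low, and fell by 0.98 in 30-day skin. Of 11 genes of spondins, R-spondins, thrombospondins and mindin integrins, 2 were higher and 0 lower in mixed-strain cultures, against 4.84% and 9.27% of genes. The 2 were the thrombospondin genes Thbs1 (0.58) and Thbs2 (0.67), while the spondin gene Spon1 differed by -0.01 (adjusted p = 0.963, limma). In 30-day skin 1 of the 11 was higher and 3 lower, against 5.42% and 9.36%. Thbs2, which encodes a matricellular protein, fell by 2.02 there.

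Neighbours on the chromosome did not share the size of the 5 differences. The 5 measured genes on each side of each of the 5 genes in RefSeq order gave 50 neighbours. Of these 2 were higher and 5 lower in mixed-strain cultures, against 4.84% and 9.27% of all genes. In 30-day skin 4 were higher and 6 lower, against 5.42% and 9.36%. The largest culture difference among neighbours lay on chromosome 14 beside Rpgrip1. The histone chaperone gene Supt16, directly after it, fell by 1.14 in mixed-strain cultures and fell by 1.10 in 30-day skin (adjusted p = 0.000146 and 0.00177, limma). Ndrg2, 4 measured genes before it, rose by 0.84 and by 0.53 (adjusted p = 0.000828 and 0.0383, limma).

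Around D17H6S56E-5 on chromosome 17, the RNA-processing gene Lsm2 fell by 0.52 in mixed-strain cultures and the heat shock gene Hspa1a rose by 0.45, while Vars, directly on the other side, differed by 0.50 (adjusted p = 0.0679, limma). Over 43 measured MHC class III genes 2 were higher and 6 lower in mixed-strain cultures, against 4.84% and 9.27% of all genes. In 30-day skin 1 was higher and 6 lower, against 5.42% and 9.36%, with list medians of -0.04 in culture and 0.06 in skin. The called neighbours of the other 3 genes in culture were Bola2 (-0.51) near Gdpd3 on chromosome 7, Pdzrn3 (-0.39) near Chl1 on chromosome 6 and Slbp (-0.84) near Spon2 on chromosome 5.

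**Figure D4:**
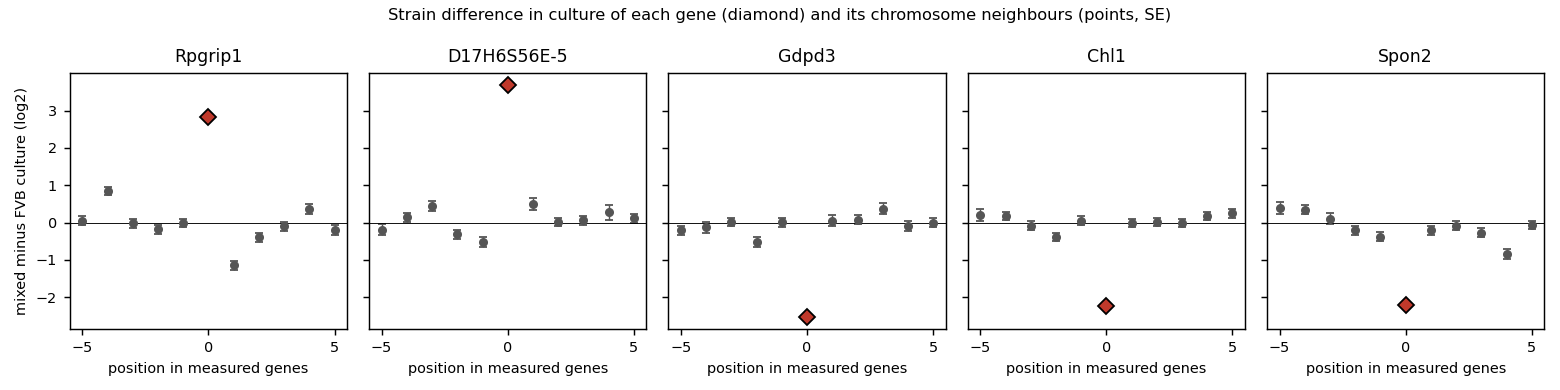
Difference between mixed-strain and FVB cultures (log2, vertical axis) of the 5 genes (diamonds) and of the 5 measured genes on each side (points with SE), in RefSeq gene order (horizontal axis). The neighbours lie between -1.14 and 0.84, and each of the 5 genes lies beyond 2 in size.

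Genes with known alleles in these strains gave mixed readings. Of 12 measured, 3 were higher and 3 lower in mixed-strain cultures, against 4.84% and 9.27% of genes. In 30-day skin 4 were higher and 1 lower, against 5.42% and 9.36%. Nnt, a mitochondrial transhydrogenase gene with a deletion in C57BL/6J mice, fell by 0.54 in mixed-strain cultures and fell by 1.33 in 30-day skin. Glo1, the glyoxalase gene duplicated in DBA/2J mice, rose by 0.42 and by 0.62. Tyr and Tyrp1, which carry coat colour alleles, rose by 1.92 and 2.29 in mixed-strain cultures and by 1.28 and 1.99 in 30-day skin. The dilute coat colour gene Myo5a fell by 0.999 in mixed-strain cultures and differed by 0.27 in skin (adjusted p = 0.490, limma), and Alad fell by 0.47 and differed by -0.71 (adjusted p = 0.131, limma). Gpnmb, which carries a nonsense allele in DBA/2J mice, differed by 0.26 in culture (adjusted p = 0.202, limma) and rose by 2.40 in skin. Hc, Pde6b, Klrd1, Cdh23 and Mx1 passed in neither comparison, with differences from -0.23 to 0.30.

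The genes closest to each of the 5 over the 12 arrays differed from one to the next. By Pearson r, Rpgrip1 was followed most closely by Pgap2 (0.973), Esco1 (0.957) and Idua (0.934). Esco1 differed by 1.33 in culture and by 1.64 in skin, the widest gaps of the 3. D17H6S56E-5 was followed by Zfp931 (0.950), Rgs4 (0.949) and Kif3b (0.942), and Gdpd3 by Cops9 (0.968), Prss12 (0.961) and Ehd4 (0.955). Chl1 was followed by the growth factor gene Pdgfa (0.980), Cdv3 (0.979) and Rbm43 (0.967), and Spon2 by Dnajc2 (0.954), Rala (0.953) and Efr3a (0.953). The points share 4 group levels, so these values describe the arrays and carry no test.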

How the data were processed

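The deposited values are log2 levels made by RMA, per the submitters' processing notes, from 1 Affymetrix mouse array per sample. The RMA release is not given in the sources used here. Array medians lay between 5.86 and 6.01. Precision is limited by how many arrays there are. The values come without detection calls, so whether a low signal lies above background is not known. Genes were named from the platform annotation (1 symbol for 20380 probe sets, several for 691, none for 1555).

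Using R 4.3.3, two-sided tests were made with limma 3.58.1, by lmFit followed by eBayes, on all 22626 non-control probe sets, with 7 skin arrays or 5 culture arrays per fit. The Benjamini-Hochberg adjustment ran over all probe sets, with a threshold of 0.05. Gene ranks, lists and neighbours used the probe set with the highest mean per gene. The fits were also run on simulated arrays with independent noise. Those arrays lack the likeness between some arrays of a group seen here, so they cannot check the p-values for it. The genes and lists were chosen with earlier results of these data known. The text names the 5 genes, their 3 most similar genes each, genes next to them in rank, and called or fixed members of the lists. Alternatives covered normalisation, centring, a filter on the dimmest 40%, the probe set rule, the samples in the fit, the variance model, array weights, a replicate block and leaving out each array. Figures used Python 3.11.15 and matplotlib 3.10.9.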

Additional observations from a re-analysis of the deposited data

Results flagged for a closer look

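Chl1 in 30-day skin had 1 array far from the others of its group. Replicate 1 read 5.15, and the other 4 arrays read 4.02 to 4.35, a gap of 0.713 of the whole range, just above the limit of 0.71 for 5 arrays. Chance flags about 1 in 20 groups, and 9 probe sets were examined. The same array stood apart in its actin and 18S rRNA controls.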

How the results depend on the processing

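Rpgrip1 (1421144_at) passed in skin under all 16 alternatives, with differences from 3.32 to 3.86, the highest with the replicate block. D17H6S56E-5's 1417821_at passed in skin with all 12 arrays (0.61) and with the replicate block (0.76, adjusted p = 0.0455, limma). The 12-array fit takes its spread partly from the cultures, whose values chose the genes. The block compares same-numbered arrays, so each difference under it rests on replicates 1 and 2 of both skin groups. These include 30-day replicate 1 with its wide actin gap. Gdpd3 kept its sign in skin, and missed the threshold with the replicate block (-0.59, adjusted p = 0.140, limma), with close 30-day arrays averaged, chosen after seeing the data (-0.68, adjusted p = 0.0822, limma), and without either newborn array (leave-one-out range -0.85 to -0.61). Chl1 passed with array weights (-0.61) and without 30-day replicate 1 (range -0.67 to -0.31). Spon2 turned with the replicate block (0.25), with close arrays averaged (0.038) and without 30-day replicate 4 or 5 (range -0.15 to 0.053). Rpgrip1's 1451785_at, near 0, turned under requantiling (-0.0031), centring (-0.010), array weights (-0.012) and single arrays left out (range -0.17 to 0.19). In culture the other Rpgrip1 probe sets gave -0.19, -0.36 and 0.20, and the other D17H6S56E-5 probe set 4.64. The cause was not tested.

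Counts of probe sets called in skin were 1092 higher and 1750 lower. They were 2236 and 2883 with array weights, 494 and 562 with the replicate block, 470 and 822 with close arrays averaged, 2149 and 2635 without 30-day replicate 1, 302 and 563 without newborn replicate 1, and 201 and 407 without newborn replicate 2. In culture 1468 were higher and 1832 lower. They were 885 and 1200 with all 12 arrays, 2450 and 2857 with array weights, 2353 and 2536 without FVB replicate 5, 479 and 456 without mixed-strain replicate 1, and 581 and 651 without replicate 2, and 639 were higher over 1 probe set per gene, where fewer features were tested. Same-numbered 30-day and newborn arrays had r = 0.046 and 0.081 between their deviations from the group means. The deviations of the 2 newborn arrays mirror each other, so these values cannot decide whether same-numbered arrays share a batch or pairing.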

Other observations

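Outside the 5 genes, those that differed in the same direction in culture and in skin were ordered, after their values were seen, by the smaller of the 2 differences. Krt1 led, at -2.29 in culture and -2.65 in skin, then Tyrp1, the binding protein gene Igfbp2 (-1.74 and -2.14), the wound keratin gene Krt6b (-1.55 and -3.90) and the arginase gene Arg1 (1.504 and 1.59).

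Of 600 genes higher in mixed-strain cultures, 101 or 16.8% were also higher in 30-day skin and 82 or 13.7% lower. Of 1149 genes lower in mixed-strain cultures, 213 or 18.5% were also lower in 30-day skin and 55 or 4.79% higher. Over all genes, 5.42% were higher and 9.36% lower in 30-day skin. The 101 and 213 genes made up 15.03% of the 672 genes higher and 18.4% of the 1160 genes lower in 30-day skin. Over all genes, 4.84% were higher and 9.27% lower in mixed-strain cultures.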
